A study of Mus musculus with 4 samples.

Results

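The TNF superfamily ligands and receptors were taken as genes of the count table whose symbol begins with Tnfsf or Tnfrsf and a number, together with Tnf itself. This gave 31 of 24907 genes, of which 12 encode ligands and 19 encode receptors. Transcripts were counted by RNA-seq in 2 libraries of ASZ001 cells with a doxycycline-inducible c-FOS vector and 2 libraries of ASZ001 cells with the empty inducible vector, called control. ASZ001 is a mouse basal cell carcinoma line, grown as adherent cells, and both kinds of cell received Dox. Cells with the c-FOS vector but no Dox were not among the libraries, so induction of c-FOS and any other difference between the kinds of cell cannot be told apart. Nothing in the labels tells whether the libraries of a group are separate cultures, so p-values cover only the spread among these 4 samples, and that spread may be technical.

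Ligands of the TNF superfamily are mostly membrane proteins that act as trimers, some of them after shedding, and their receptors carry cysteine-rich repeats outside the cell. Receptors with a death domain can recruit caspase-8 through adaptor proteins, receptors with TRAF-binding motifs signal to NF-kB and to the kinases that activate AP-1, and decoy receptors bind a ligand without passing on its signal. In skin, TNF itself drives inflammation, and the ectodysplasin branch of the family directs the formation of hair follicles. Many other members are best known from lymphocytes, as costimulatory receptors or survival factors.

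Deposited counts summed to between 28405433 and 32465409 per library. Levels are given as CPM, counts per 1e6 counts, on the TMM-scaled library size. Fos, the gene carried by the vector, was at 297 and 313 CPM in the c-FOS libraries and at 0.404 and 0.351 CPM in the control libraries. Of the 6 epithelial markers Krt5, Krt14, Krt17, Trp63, Epcam and Cdh1, all were expressed, although 5 were lower with c-FOS, with summed levels of 11400 and 11900 CPM in the c-FOS libraries and 24600 CPM in each control library. The leukocyte marker Ptprc averaged 0.0862 CPM with c-FOS and 0.0168 CPM in control, and the lymphocyte markers Cd3e, Cd3g, Cd79a and Ms4a1 were at 0 in all 4 libraries. Nkg7, a marker of cytotoxic lymphocytes, had 2.5 and 3.5 deposited counts in the c-FOS libraries and 0 in each control library. Other cell type markers moved with c-FOS. Of 13 macrophage and leukocyte markers 3 were tested and the 3 rose (summed level of the list 41.7 and 45.2 CPM with c-FOS, 18.9 and 17 CPM in control, or 23.3 and 26.7 CPM with c-FOS and 18.5 and 16.8 CPM in control without Csf1r). The 3 were Csf1r, Cd68 and Cd14. Csf1r, at 0.404 and 0.224 CPM in the control libraries, met the count minimum for testing through the c-FOS group only. This selects it for a higher level in that group. The macrophage marker Lyz2 averaged 0.12 CPM with c-FOS and 0.0664 CPM in control. Adgre1 averaged 0.018 and 0 CPM, and Itgam 0 and 0.016 CPM, in the same order. Of 10 fibroblast markers 6 were tested, 4 rose and 1 fell (135 and 137 CPM with c-FOS, 16.2 and 14.7 CPM in control), and Thy1 was at 0 throughout. S100a4 made up most of that sum, and without it the list summed to 18.3 and 19.6 CPM with c-FOS and 8.74 and 8.94 CPM in control. Of 6 endothelial markers 4 were tested, 3 rose and 1 fell (219 and 214 CPM with c-FOS, 117 CPM in each control library, or 106 and 105 CPM with c-FOS and 88.1 and 84.2 CPM in control without Flt1), and Kdr was at 0. Pdgfrb, among the fibroblast markers that rose, had no counts in control and was also tested through the c-FOS group only. Of all 12791 genes tested, 33.8% rose and 33.3% fell. The part of fibroblast, endothelial and macrophage markers in the results that follow was not tested.

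Receptor transcripts, and few ligand transcripts, were found in these cells. Of the 31 genes, 14 had enough counts to be tested (about 10 counts, or 0.339 CPM, in at least 2 libraries): 3 of 12 ligands and 11 of 19 receptors. With c-FOS, 7 of the 14 rose and 3 fell at an adjusted p under 0.05 (edgeR quasi-likelihood test, Benjamini-Hochberg adjustment over all genes), and 4 did not pass. The test called 67.1% of all 12791 genes tested, 33.8% as higher and 33.3% as lower, so a call by itself was common. Scaled by library totals in place of TMM, the split over all genes was 25.2% higher and 46% lower, and it was 29.6% higher and 39.3% lower with upper-quartile factors, while the 14 genes kept their calls under both. In RNA from whole cultures, fewer cells that express a gene and less of its RNA per cell cannot be told apart. The genes that rose were the ligands Tnfsf15 and Tnfsf13 and the receptors Tnfrsf9, Tnfrsf12a, Tnfrsf23, Tnfrsf21 and Tnfrsf22. Tnfrsf18, Tnfrsf25 and Tnfrsf1a fell.

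A change of at least 2-fold, with a call, was seen in 5 genes that rose and 2 that fell, where 7.73% of all tested genes rose and 7.71% fell by that much. A gene that passes the count minimum in 1 group only is selected for a higher level in that group. This applies to 7 of the 14 (Tnfrsf9, Tnfsf13, Tnfsf13b, Tnfrsf1b and Tnfrsf19 through the c-FOS group, Tnfrsf18 and Tnfrsf25 through the control group). Of these 7 genes, 2 rose, 2 fell and 3 did not pass. Among the other 7, which reached the minimum in all 4 libraries, 5 rose, 1 fell and 1 did not pass, and their median log2 fold change was 0.80. Of the 12060 genes of the table that reached it in all 4 libraries, 66.9% were called (33.4% higher and 33.5% lower), and the median was -0.01. Groups did not overlap for 13 of the 14 genes, against 83.6% of all tested genes.

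**Figure D1:**
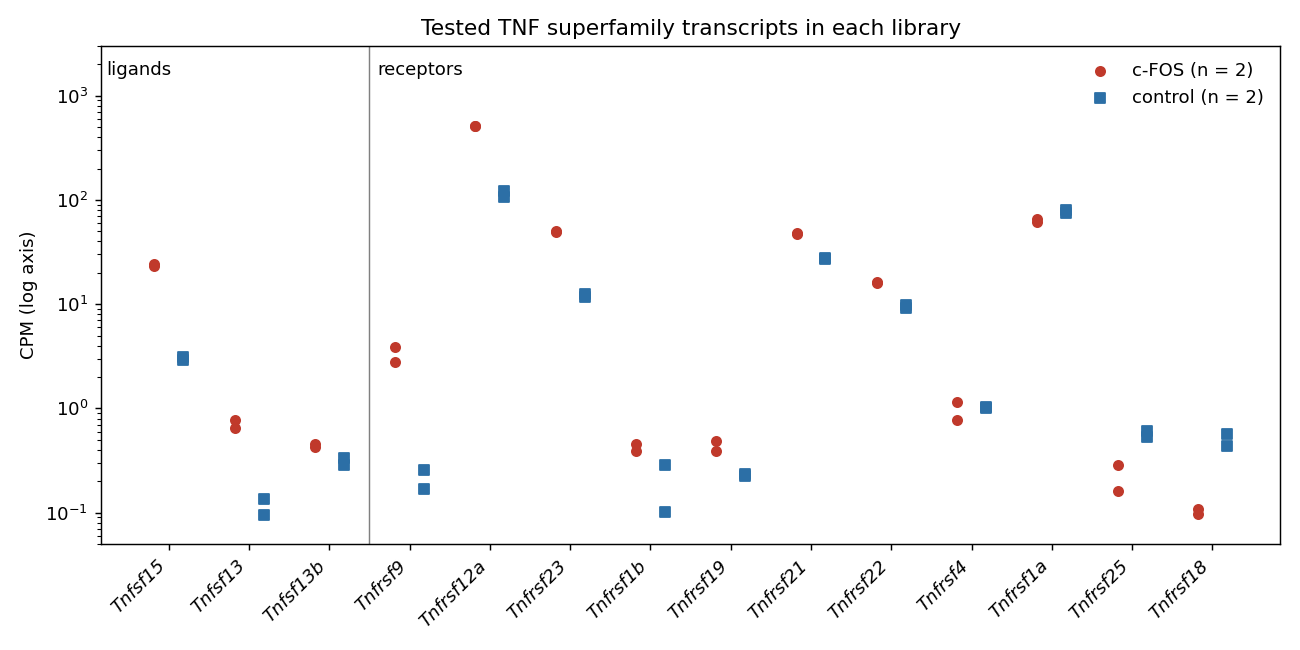
Level of each tested ligand (left) and receptor (right) in each library, in CPM on a log axis; red points are the 2 c-FOS libraries and blue squares the 2 control libraries. Tnfrsf4 is the 1 gene whose groups overlap, and Tnfrsf12a is the highest in every library.

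Promoter windows of the 5 genes that rose by over 2-fold are shown because c-FOS is a subunit of AP-1, whose element reads TGACTCA, or TGAGTCA when found on the other strand. Each runs over the 250 bases before a RefSeq transcript start of build GRCm38.p6, which is not the mm9 build of the counts, and capitals mark an AP-1 element. The Tnfrsf12a window is chr17:23677450-23677699 on the minus strand, the Tnfrsf23 window chr7:143685876-143686125 on the minus strand, the Tnfrsf9 window chr4:150927749-150927998 on the plus strand before the downstream of its 2 starts, the Tnfsf13 window chr11:69685555-69685804 on the minus strand and the Tnfsf15 window chr4:63745060-63745309 on the minus strand.
Tnfrsf12a: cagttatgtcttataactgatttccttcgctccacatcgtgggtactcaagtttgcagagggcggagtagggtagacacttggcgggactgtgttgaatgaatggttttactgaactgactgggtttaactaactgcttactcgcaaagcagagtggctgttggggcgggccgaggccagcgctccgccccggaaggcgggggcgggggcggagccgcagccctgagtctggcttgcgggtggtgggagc
Tnfrsf23: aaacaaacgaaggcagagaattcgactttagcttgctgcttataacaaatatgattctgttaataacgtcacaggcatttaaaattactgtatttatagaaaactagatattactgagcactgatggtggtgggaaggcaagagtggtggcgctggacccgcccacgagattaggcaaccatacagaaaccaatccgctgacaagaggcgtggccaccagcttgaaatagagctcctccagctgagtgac
Tnfrsf9: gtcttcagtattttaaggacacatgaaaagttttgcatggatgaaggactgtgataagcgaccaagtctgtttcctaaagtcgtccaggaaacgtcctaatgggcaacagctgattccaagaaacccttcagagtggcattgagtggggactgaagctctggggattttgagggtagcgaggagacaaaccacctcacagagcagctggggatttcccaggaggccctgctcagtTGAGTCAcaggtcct
Tnfsf13: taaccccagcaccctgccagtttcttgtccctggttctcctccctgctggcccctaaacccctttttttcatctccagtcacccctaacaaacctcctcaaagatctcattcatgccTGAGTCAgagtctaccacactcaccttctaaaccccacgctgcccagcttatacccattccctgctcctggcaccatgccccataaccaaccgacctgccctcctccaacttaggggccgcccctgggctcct
Tnfsf15: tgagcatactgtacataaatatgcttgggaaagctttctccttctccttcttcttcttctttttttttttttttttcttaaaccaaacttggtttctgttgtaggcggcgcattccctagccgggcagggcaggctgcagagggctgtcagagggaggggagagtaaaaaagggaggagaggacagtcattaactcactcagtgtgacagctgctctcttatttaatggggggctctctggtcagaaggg
Tnfrsf9 carried the element with its first base 15 bases before that start, and Tnfsf13 at 133 bases before its start. The window before the other Tnfrsf9 start, chr4:150919905-150920154, and the windows of Tnfrsf12a, Tnfrsf23 and Tnfsf15, which also rose, held neither this element nor TGACGTCA, the cyclic AMP response element, on either strand. RefSeq windows were found for 25 of the 31 genes, and 5 of these held TGACTCA in at least 1 window, against 5.16% of the 27025 genes with RefSeq windows. None of the 25 held TGACGTCA, against 1.77% of genes. The other 3 with the AP-1 letters were Tnfsf13b, which did not pass the test, and Tnfrsf8 and Tnfsf14, which had no counts in any library. A match describes letters in a window and is not shown to be a bound site.

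Tnfrsf12a, which encodes Fn14, the receptor for the cytokine TWEAK, was the most abundant transcript of the family. It stood at 511 and 507 CPM in the c-FOS libraries and at 106 and 123 CPM in the control libraries. Both c-FOS libraries were well above both control libraries. The log2 fold change was 2.15 ± 0.06 (SE; adjusted p = 4.96e-13), or 4.44-fold. It lay between 2.01 and 2.27 over the alternatives run. Levels of different genes are compared per length, as CPM per kilobase of the deposited gene model. On that scale Tnfrsf12a averaged 531 with c-FOS and 120 in control, and it made up 88.6% and 88.3% of the summed level of the 31 genes in the c-FOS libraries, against 67.4% and 71.3% in the control libraries. By its mean level per length over the 4 libraries it ranked 86 of 12791 tested genes. Tnfsf12, which encodes TWEAK, had a total of 0.5 deposited counts, all in the c-FOS group. An adjacent gene that overlaps Tnfrsf12a in RefSeq, Hcfc1r1, went the other way, with 147 CPM in each c-FOS library against 170 and 167 CPM in the control libraries (log2 fold change -0.20, adjusted p = 0.000348).

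Receptors with a death domain went in different directions. Tnfrsf1a, the main receptor for TNF, was at 61.2 and 65.3 CPM in the c-FOS libraries and at 79.9 and 75.7 CPM in the control libraries. The c-FOS libraries were lower by a small margin, with a log2 fold change of -0.30 ± 0.05 (SE; adjusted p = 9.62e-05). Per length it was the second most abundant of the tested genes in both groups. Tnfrsf21, which encodes death receptor DR6, was at 47.7 and 47.6 CPM with c-FOS and at 27.3 and 27.5 CPM in control, a log2 fold change of 0.80 ± 0.06 (SE; adjusted p = 1.96e-08.) Replicates of Tnfrsf21 were nearly equal within each group. Tnfrsf25, the receptor for the ligand encoded by Tnfsf15, was low, with 8 and 5 deposited counts in the c-FOS libraries and 16 and 19 in the control libraries. Its log2 fold change was -1.36 ± 0.43 (SE; adjusted p = 0.0128.) That call was lost without c-FOS replicate 2 (-0.98, adjusted p = 0.184) and in DESeq2 (-1.35, adjusted p = 0.155), within a range of 0.00682 to 0.184 over the alternatives run.

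Decoy receptors for TRAIL, the ligand encoded by Tnfsf10, rose. Tnfrsf23 and Tnfrsf22 encode mouse receptors that bind TRAIL and lack a death domain, and they lie next to each other on chromosome 7. Tnfrsf23 was at 50.4 and 48.9 CPM in the c-FOS libraries and at 11.6 and 12.4 CPM in the control libraries. Tnfrsf22 was at 16.2 and 16 CPM with c-FOS and at 9.79 and 9.1 CPM in control. In both genes the c-FOS libraries lay above the control libraries, and the separation was wider for Tnfrsf23. The log2 fold change was 2.05 ± 0.07 (SE) for Tnfrsf23 (adjusted p = 7.36e-12) and 0.77 ± 0.09 (SE) for Tnfrsf22 (adjusted p = 2.87e-06). The difference between these 2 fold changes was not tested. The genes are close paralogs: 17.3% of the 50-base windows of Tnfrsf22 transcripts and 18% of those of Tnfrsf23 transcripts occur in the other gene, so reads could have been split between them. Summed into 1 row, an alternative chosen after seeing the data, they gave a log2 fold change of 1.62. Tnfrsf26, the third receptor gene of this cluster, had 3 deposited counts in all, in the c-FOS libraries, and shared no such window with the other two. Tnfsf10 had 1 deposited count, in a control library.

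Costimulatory receptors known from lymphocytes were low, and they did not move together. Tnfrsf9, which encodes CD137, had 77 and 121 deposited counts in the c-FOS libraries and 5 and 7.5 in the control libraries. This came to 2.77 and 3.91 CPM with c-FOS and 0.168 and 0.255 CPM in control. Its log2 fold change of 3.95 ± 0.32 (SE; adjusted p = 9.4e-08) was the highest of the 14 and ranked 140 of 12791 tested genes. Its ligand gene Tnfsf9 had 4.5 deposited counts with c-FOS and 3.5 in control. Tnfrsf18, which encodes GITR, fell. It had 3 deposited counts in each c-FOS library and 13 and 17.5 in the control libraries. The log2 fold change was -2.27 ± 0.52 (SE; adjusted p = 0.00148), and it was -2.3 in DESeq2 (adjusted p = 0.0397). Its counts in the c-FOS libraries lie at the floor of 3 counts used in this text. Tnfrsf4, which encodes OX40 and is the neighbour of Tnfrsf18 on chromosome 4, had 1.15 and 0.775 CPM with c-FOS and 1.04 and 1.02 CPM in control. The c-FOS libraries lay on either side of the control libraries, and the gene did not pass (-0.11, adjusted p = 0.739). Tnfrsf4 overlaps the far more abundant gene Sdf4 in RefSeq, at 219 ± 1.45 CPM with c-FOS and 213 ± 0.349 CPM in control (SD, n = 2 each). Sdf4 did not pass, and its log2 fold change of 0.04 turned to -0.10 and passed when scaled by library totals (adjusted p = 0.0215, within a range of 0.0215 to 0.705 over the alternatives run). The sources used here do not tell whether counting used strand, so reads of overlapping genes may not be told apart.

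The other 2 tested receptors had few counts. Tnfrsf1b, the second receptor for TNF, had 10.5 and 14 deposited counts with c-FOS and 3 and 9 in control, a log2 fold change of 1.10 ± 0.51 (SE) that did not pass (adjusted p = 0.0705). It passed without control replicate 2 (2.03, adjusted p = 0.0107), with a range of 0.0107 to 0.389 across alternatives. Tnfrsf19, which encodes TROY, a receptor expressed in embryonic skin and hair follicles, had 11 and 14.5 deposited counts with c-FOS and 7 in each control library. It did not pass either (0.93 ± 0.44, adjusted p = 0.0735).

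**Figure D2:**
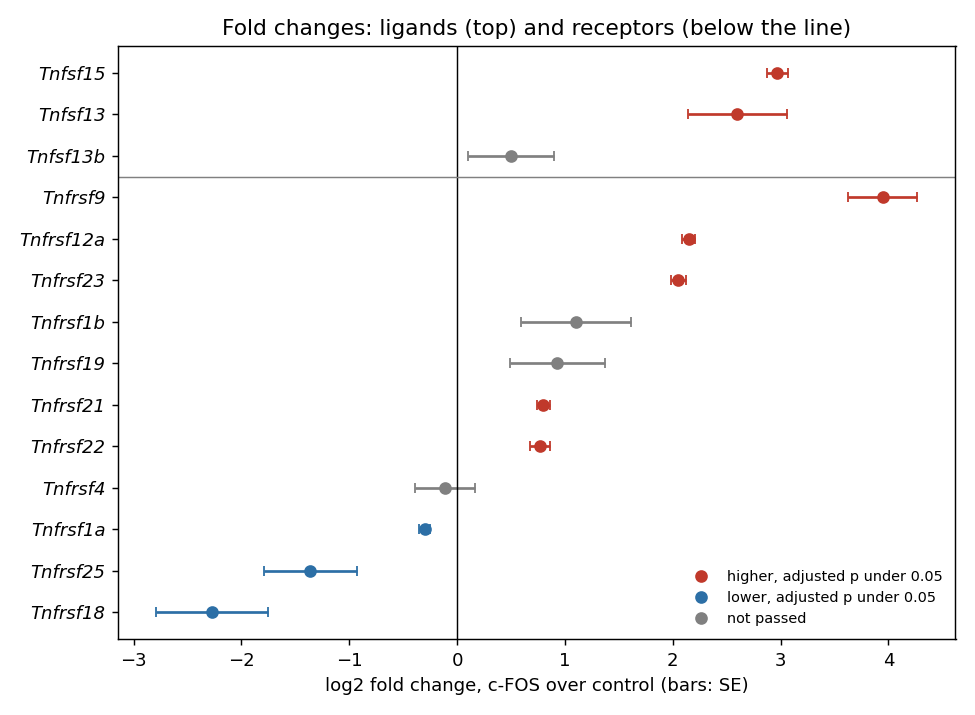
Log2 fold change, c-FOS over control, of the 14 tested genes with SE bars from the quasi-likelihood fit; red genes rose, blue genes fell and grey genes did not pass an adjusted p under 0.05. Values run from -2.27 for Tnfrsf18 to 3.95 for Tnfrsf9, and the bars are widest for the genes with few counts.

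Among ligands, Tnfsf15 was the one expressed above 1 CPM. It encodes TL1A, a cytokine that acts on T cells through the product of Tnfrsf25. Its level was 24.2 and 23.3 CPM in the c-FOS libraries and 2.93 and 3.13 CPM in the control libraries. The groups were far apart and the replicates close, with a log2 fold change of 2.97 ± 0.10 (SE; adjusted p = 7.99e-12), or 7.83-fold. Over the alternatives run the log2 fold change lay between 2.83 and 3.02. Tnfsf8, the next protein-coding gene on chromosome 4, which encodes the ligand of CD30, had 0.5 deposited counts in all. Of 18 known ligand and receptor pairs taken within the 31 genes, the pair of Tnfsf15 and Tnfrsf25 was the 1 with both partners tested. Here the ligand rose and the receptor fell, with the limits on the Tnfrsf25 call given above. Pairs with a partner outside the 31 genes, such as Eda and Edar, which were both tested, were not counted.

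Tnfsf13, which encodes APRIL, a survival factor for B-lineage cells, had 18 and 24 deposited counts in the c-FOS libraries and 3.5 and 3 in the control libraries. That corresponds to 0.647 and 0.775 CPM with c-FOS and 0.135 and 0.0958 CPM in control. The log2 fold change was 2.60 ± 0.46 (SE; adjusted p = 0.000199.) At this locus the row Tnfsfm13 is counted separately and overlaps both Tnfsf12 and Tnfsf13 in RefSeq, so its reads and theirs may be shared. It had 15 and 16 deposited counts with c-FOS and 0.5 and 1.5 in control, so it passed the count minimum through the c-FOS group only. The test called it higher, with a log2 fold change of 3.32 ± 0.59 (SE; adjusted p = 0.000209). The counts rounded per library, 31 against 3, gave a ratio of 10.7 with an exact 95% interval of 3.35 to 54.9 that covers counting error only. Tnfsf13b, which encodes the B-cell survival factor BAFF, had 12 and 14 deposited counts with c-FOS and 9.5 and 8.5 in control, and it did not pass (0.50 ± 0.40, adjusted p = 0.294). The receptor genes for these ligands were at or near 0: Tnfrsf13b and Tnfrsf17 had no counts and Tnfrsf13c had 1.5 in all.

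Tnf, the founding ligand, did not reach the minimum for the test. It had 9 and 5 deposited counts in the c-FOS libraries and 0.5 and 2 in the control libraries. With counts rounded per library, 14 against 3, the ratio was 4.85 with an exact 95% counting interval of 1.35 to 26.3. Without a filter on low counts it passed narrowly (adjusted p = 0.0465). This interval too covers counting error only, and a floor of 3 counts corresponds to between 0.0958 and 0.108 CPM per library.

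The remaining 16 genes had at most 4.5 deposited counts in any library. There were no counts in any of the 4 libraries for 6 of them: Tnfsf11, which encodes RANKL, Tnfsf14, which encodes LIGHT, and the receptor genes Tnfrsf8, Tnfrsf13b, Tnfrsf14 and Tnfrsf17. Tnfrsf11a, which encodes RANK, had 3 deposited counts with c-FOS and 2 in control, and Tnfrsf11b, which encodes the RANKL decoy osteoprotegerin, had 1, with c-FOS. The ligand genes Tnfsf4 and Tnfsf18, neighbours on chromosome 1, had 2 and 2.5 deposited counts in all. At this depth no difference between the groups was detectable for these genes.

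Levels per length put the tested genes in a steep order. In the c-FOS libraries Tnfrsf12a, at 533 and 529 CPM per kilobase, was followed by Tnfrsf1a at 28.5 and 30.5, Tnfrsf23 at 15.4 and 14.9, Tnfrsf21 at 13.2 in both, Tnfsf15 at 4.16 and 4.01 and Tnfrsf22 at 3.9 and 3.84. No neighbours among these 6 overlapped, although Tnfsf15 and Tnfrsf22 were close. At the low end Tnfrsf25 at 0.18 and 0.101 CPM per kilobase, Tnfrsf18 at 0.105 and 0.0947, Tnfrsf19 at 0.0855 and 0.105 and Tnfrsf1b at 0.0807 and 0.0922 overlapped each with the next. In the control libraries the order was Tnfrsf12a at 110 and 129 CPM per kilobase, Tnfrsf1a at 37.3 and 35.3, Tnfrsf21 at 7.56 and 7.6, Tnfrsf23 at 3.53 and 3.78 and Tnfrsf22 at 2.35 and 2.19, followed by Tnfrsf4 at 0.91 and 0.892. Thus Tnfrsf23 stood above Tnfrsf21 in both c-FOS libraries and below it in both control libraries. Tnfsf15 was at 0.502 and 0.538 CPM per kilobase in the control libraries, where its range overlapped that of Tnfrsf18 at 0.427 and 0.562. The 31 genes without Tnfrsf12a summed to 68.8 and 70.4 CPM per kilobase with c-FOS and to 53.5 and 51.9 in control.

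**Figure D3:**
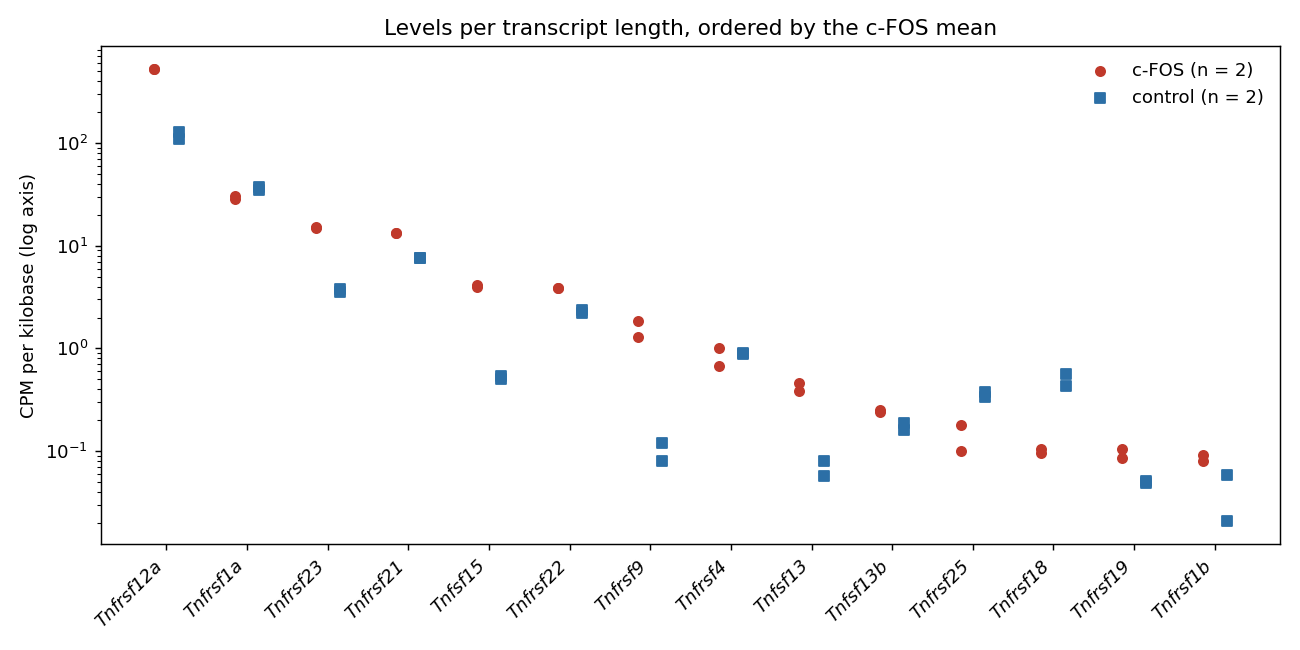
Level per length of the 14 tested genes in each library, in CPM per kilobase of gene model on a log axis, ordered by the c-FOS mean; red points are c-FOS and blue squares control libraries. Tnfrsf12a is above 100 in every library, and Tnfrsf1b is below 0.1 in every library.

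Family members with other symbols, which the rule for the 31 genes leaves out, also changed in both directions. Of 14 such genes 7 were tested, and 3 rose and 4 fell, where 67.1% of all tested genes were called (33.8% higher and 33.3% lower). Ngfr and Eda2r passed the count minimum through the c-FOS group only, and Eda, Edar and Fas through the control group only. Passing in this way selects a gene for a higher level in that group. Ngfr, the low-affinity receptor for nerve growth factor, rose to 25 ± 0.363 CPM with c-FOS, against 0.266 ± 0.195 CPM in control (SD, n = 2 each), a log2 fold change of 6.55 (7.57 without control replicate 1 and 5.94 without control replicate 2). Relt, another receptor gene, rose by 2.08 and Eda2r, a receptor for an isoform of ectodysplasin, by 4.30 on the log2 scale. The Eda2r value was 4.91 without control replicate 1 and 3.85 without control replicate 2. The hair follicle branch of ectodysplasin was lower: Eda, the ligand, averaged 0.122 ± 0.0814 CPM with c-FOS and 0.604 ± 0.0938 CPM in control, and Edar, its receptor, 0.224 ± 0.0892 CPM with c-FOS and 1.46 ± 0.03 CPM in control (SD, n = 2 each). Their log2 fold changes were -2.31 for Eda (-3.15 when c-FOS replicate 1 was left out, and -1.73 when c-FOS replicate 2 was) and -2.70 for Edar. Edaradd, the adaptor of Edar, fell as well, to 1.31 ± 0.0755 CPM with c-FOS, against 6.06 ± 0.175 CPM in control (SD, n = 2 each; log2 fold change -2.21). Ltbr, the lymphotoxin beta receptor, fell by 0.25 and Fas, the death receptor for Fas ligand, fell by 1.66 on the log2 scale. The Fas value was -2.39 without c-FOS replicate 1, and its call was lost without c-FOS replicate 2 (-1.12, adjusted p = 0.0685, within a range of 0.000224 to 0.0685 over the alternatives run).

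Of 45 tested adaptors, regulators and transcription factors that act with the receptors or downstream of them, 28 were called (62.2%, against the background of 67.1%), 19 higher and 9 lower. With the 7 tested family members of other symbols and the 8 tested sheddases and partners, 42 of 60 tested genes passed, 26 higher and 16 lower, and 22 were higher and 21 lower when scaled by library totals. Among 30 tested adaptors and kinases, 13 rose and 7 fell while 10 did not pass (median log2 fold change 0.14), and 9 were higher and 9 lower when scaled by library totals (median 0). Traf1, an adaptor for TRAF-binding receptors, had no counts in control and 50 with c-FOS. That is at least 17.3-fold higher when 3 counts are taken as the floor of the control group. Like Ngfr, Traf1 passed the count minimum through the c-FOS group only, which selects it for a higher level there. Cflar, the inhibitor of caspase-8 activation, rose by 1.07 and Casp8, caspase-8 itself, by 0.84 on the log2 scale. Besides Edaradd, the lowest were Map3k5, a stress kinase (-1.17), and Mlkl, the effector of necroptosis (-0.64). Of 12 tested genes in a list of negative regulators and TNF-induced genes, 3 rose, 2 fell and 7 did not pass (median 0.07). Library totals gave 3 higher and 4 lower with a median of -0.07, so the direction of this list depended on the scaling. Tnfaip3, which encodes the NF-kB inhibitor A20, rose by 0.74, its partner Tnip1 by 0.54 and Tnfaip1 by 0.35, while Traip fell by 1.58 and the protease gene Sppl2b by 0.16. The Sppl2b call was lost in DESeq2 (adjusted p = 0.105) and without c-FOS replicate 1, c-FOS replicate 2 or control replicate 1 (adjusted p from 0.0583 to 0.164).

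In the list of sheddases, their regulators and other partners, 4 of 8 tested genes rose and 3 fell. Over all tested genes, 33.8% rose and 33.3% fell. Library totals gave 4 higher and 4 lower in this list, with a median log2 fold change of 0.01, against 0.14 with TMM. Timp3, an inhibitor of the TNF sheddase, was at 6850 ± 142 CPM with c-FOS and 1850 ± 115 CPM in control (SD, n = 2 each; log2 fold change 1.89). Tlr4, a receptor upstream of TNF production, rose by 1.67 and the sheddase gene Adam10 by 0.38, while Lgr4, which can bind RANKL, fell by 1.01, Rhbdf2, a partner of the TNF sheddase, by 0.41 and Sdc1, a binding partner of APRIL, by 0.36 on the log2 scale. Adam17, the TNF sheddase itself, did not pass and stood at 57.3 ± 1.07 CPM with c-FOS and 57 ± 2.48 CPM in control (SD, n = 2 each). Its log2 fold change of 0.01 turned to -0.13 when scaled by library totals, where it passed as lower (adjusted p = 0.0298, within a range of 0.0298 to 0.989 over the alternatives run). The transcription factor genes Relb, Nfkb2 and Nfatc1, which act downstream of lymphotoxin and RANKL receptors, rose by 0.59, 0.55 and 0.37 on the log2 scale.

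**Figure D4:**
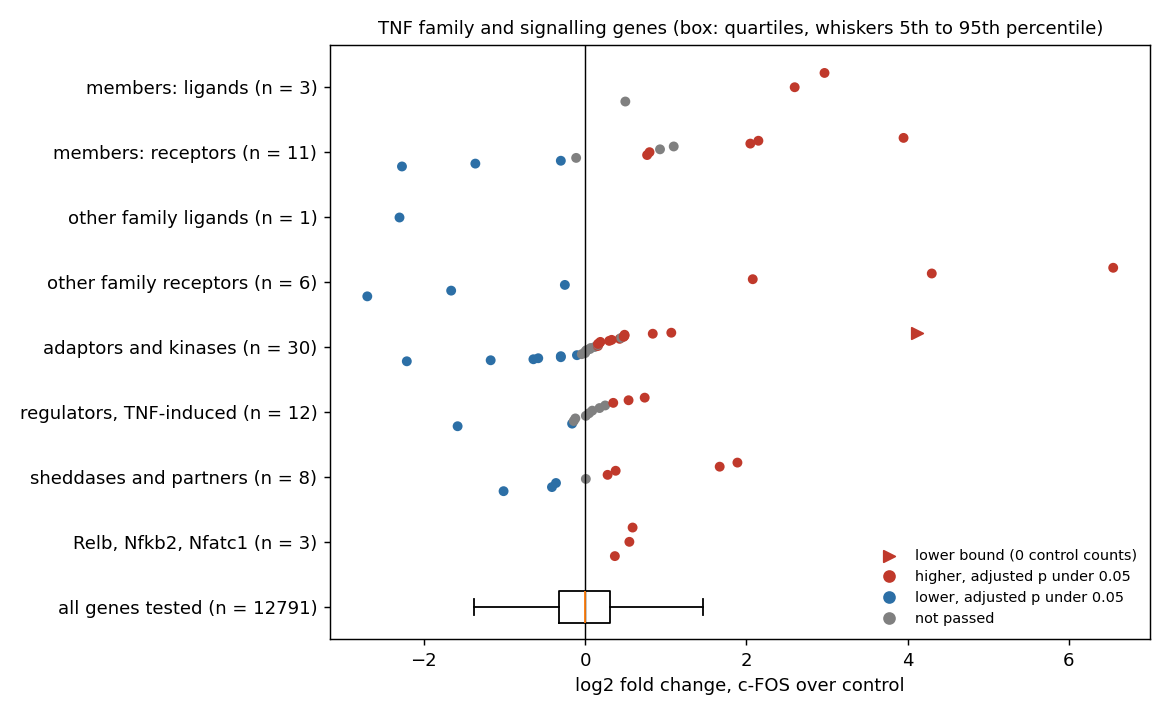
Log2 fold change, c-FOS over control, of tested genes in each list (1 point per gene, with the number tested), above a box of the quartiles of all 12791 tested genes with whiskers at the 5th and 95th percentiles. The whiskers end at -1.38 and 1.47, and Ngfr at 6.55 is the farthest point; Traf1 is drawn at its lower bound as a triangle.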

How the data were processed

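RNA-seq was made from ASZ001 cells, 2 libraries with a c-FOS vector and 2 with an empty vector, grouped by title. Per the labels' protocols, column-purified RNA went into Illumina TruSeq libraries. Per the series design text, reads were aligned with TopHat and analysed with HOMER, and per the submitters' processing notes the build was mm9 and DESeq2 was used. The sources used here do not give versions, annotation or strand setting. The authors deposited unnormalized expected counts in steps of 0.5 per gene symbol (48% of values above 0 are not whole), with a gene model length in bases. The table had 24909 rows. For a symbol on more than 1 row, the row with the highest total was kept.

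Counts were rounded (0.5 upwards) and tested with the two-sided quasi-likelihood test of edgeR 4.0.16 in R 4.3.3, with TMM factors and no covariates. The filter was filterByExpr by group with a minimum count of 10 and a minimum total of 15, which left 12791 genes, and p-values were adjusted over these by Benjamini-Hochberg (threshold 0.05). CPM uses effective library sizes, and SE comes from the F statistic. Replicates differed by more than sampling noise (chi-square per degree of freedom 1.98 in c-FOS and 5.02 in control). Alternatives were RLE, upper-quartile and no factors, other filters, DESeq2 1.42.0, leaving out each library, a replicate block, and 1 summed row for a paralog pair, the last chosen after seeing the data. Every member is named. From other lists, with family members of other symbols as 1 list, the called genes with the 3 highest and 3 lowest fold changes are named. Further ones (Ltbr, Adam17) and overlapping genes (Hcfc1r1, Sdf4, Tnfsfm13) were chosen after their values were seen. The members and lists were chosen with earlier results of these data known. A gene that fits the symbol pattern is not reported here. Promoter sequences are from RefSeq (GRCm38.p6).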

Additional observations from a re-analysis of the deposited data

How the results depend on the processing

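The 14 tested genes gave 147 values under the alternatives run, of which 143 kept the direction and the side of the threshold. Tnfrsf25 lost its call in DESeq2 and without c-FOS replicate 2, Tnfrsf1b gained one without control replicate 2, and Tnfrsf4, which did not pass, changed sign without c-FOS replicate 2 (0.16; range over left-out libraries -0.41 to 0.16). For 32 other genes named in the text, 336 of 347 values kept both. Adam17 and Sdf4, which did not pass, changed sign and passed as lower with library totals (-0.13 and -0.10), and changed sign without passing with upper-quartile factors (-0.06 and -0.03). Adam17 also ranged from -0.04 to 0.05 over left-out libraries. Fas and Sppl2b lost calls as given above. The number of members called lower was 3, and 1 with a minimum count of 50, where Tnfrsf18 and Tnfrsf25 were no longer tested. Leaving out 1 library gave between 7 and 8 members higher, between 2 and 3 lower, between 38 and 43 of the related genes called, and between 7179 and 8878 genes called in all. Scaled by library totals instead of TMM, the median log2 fold change of all tested genes was -0.14, against -0.01, and that of the 14 genes 0.73, against 0.87, with no change in a call of these genes. With a minimum count of 50, which leaves out most low members, the median of those still tested was 2.05. Over all genes tested at that minimum it was -0.01. Tnfrsf9, with 77 and 121 deposited counts with c-FOS and 5 and 7.5 in control, stayed in through the c-FOS group only. This selects it for a higher level there, so the 2.05 is not free of selection. Same-numbered libraries of the groups did not deviate together (correlation of replicate differences -0.08 across genes), so the numbers are not read as pairs. The fit with the replicate number as a block called 7 members higher, 3 lower and 41 related genes, and 8464 genes in all, against 8589. Depth limits the 17 genes under the filter.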
